A study of Mus musculus with 4 samples.

Results

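The 10 genes described here encode receptors and an adaptor best known from natural killer (NK) cells: Ncr1, Klrb1c, Klrb1b, Klrk1, Klrd1, Klrc1, Klrc2, Klra5, Tyrobp and Cd7. They were chosen by name out of the 21027 genes counted in both tables of the series, and not by a threshold on their values, although earlier results of these data were known when they were chosen. The cells came from mice aged 6 to 8 weeks with floxed Cxxc1 and a cre transgene. They had been sorted as group 3 innate lymphoid cells (ILC3s) from the lamina propria of the small intestine, tagged by sample and captured on the BD Rhapsody single-cell system. Both alleles of Cxxc1 are flanked by loxP sites in these mice, and the cre driver is active in ILC3s and in developing T cells. All 4 libraries belong to this 1 genotype and make up 2 replicates of 2 libraries each, since both libraries of a replicate share 1 table and 1 sample tag. No other genotype was analysed here, so every comparison is between kinds of cells of the same 2 samples. The loss of Cxxc1 was not checked by gate. In a comparison that involves myeloid cells or cells gated as ILC1 or NK, the kind of cell and the activity of cre cannot be told apart. The labels do not say whether the replicates are separate animals or pools. The p-values therefore measure only how differences between kinds of cells vary between these 2 samples, which may be technical.

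NK receptors read the surface of neighbouring cells and set whether a lymphocyte is released or held back. Activating receptors carry no signalling tail of their own and pair in the membrane with a small adaptor such as DAP12 (Tyrobp), DAP10 (Hcst), the Fc receptor gamma chain (Fcer1g) or CD3 zeta (Cd247), while inhibitory receptors carry a tail that recruits phosphatases. Most mouse NK receptors are C-type lectins coded side by side in the NK gene complex. In the gut, NKp46 (Ncr1) marks a subset of ILC3s that can switch on T-bet, and CCR6 marks the lymphoid tissue inducer-like subset. Intestinal T cells, above all those with a gamma-delta receptor or with CD8 alpha, can carry NK receptors too, and DAP12 is also an adaptor of macrophages and dendritic cells.

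In the GRCm38 annotation (GENCODE M21), 7 members lie within 1139 kb of chromosome 6. From the start of that stretch these are Klrb1c (ENSMUSG00000030325.16, 128778485 to 128789215, minus strand), Klrb1b (ENSMUSG00000079298.9, 128813706 to 128826331, minus), Klrd1 (ENSMUSG00000030165.16, 129591782 to 129598775, plus) and Klrk1 (ENSMUSG00000030149.15, 129610323 to 129623864, minus). Klrc2 (ENSMUSG00000052736.15, 129647496 to 129660689), Klrc1 (ENSMUSG00000030167.15, 129666015 to 129678973) and Klra5 (ENSMUSG00000030173.15, 129898996 to 129917650) follow on the minus strand. Ncr1 (ENSMUSG00000062524.4, 4337724 to 4345164, plus) and Tyrobp (ENSMUSG00000030579.10, 30413760 to 30417585, plus) are on chromosome 7, and Cd7 (ENSMUSG00000025163.6, 121036747 to 121039418, minus) is on chromosome 11. Tyrobp ends 126 bases from the end of Hcst (ENSMUSG00000064109.8, 30417712 to 30419854, minus), which runs towards it. Klra5, Klrc1, Klrc2 and the Klrb1 genes have close copies in the same complex, and how reads that fit several copies were handled, or whether strand was used, is not given in the sources used here, so their counts are uncertain in that respect.

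RefSeq promoter windows on GRCm38.p6, from 250 bases before to 50 bases from the start of a transcript, were listed for 7 members, Klrd1, Tyrobp and Cd7 being without one in the table. The windows of Ncr1, Klrb1c, Klrb1b and Klrk1 are shown because these 4 genes were higher together in the ILC3s with type 1 transcripts described further on. Capitals mark the RUNX letters TGTGGT on the strand shown, or ACCACA where that strand holds their reverse complement. The windows run 5′ to 3′ on the gene's strand, at chr7:4337465-4337764 (plus) for Ncr1, chr6:128788592-128788891 (minus) for Klrb1c, chr6:128826266-128826565 (minus) for Klrb1b and chr6:129623815-129624114 (minus) for Klrk1.
Ncr1: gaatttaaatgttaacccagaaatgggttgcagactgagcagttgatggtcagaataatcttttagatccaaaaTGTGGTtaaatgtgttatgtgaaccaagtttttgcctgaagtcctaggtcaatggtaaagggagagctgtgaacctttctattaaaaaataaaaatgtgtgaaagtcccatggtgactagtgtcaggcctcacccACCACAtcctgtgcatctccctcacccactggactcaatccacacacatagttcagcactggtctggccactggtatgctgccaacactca
Klrb1c: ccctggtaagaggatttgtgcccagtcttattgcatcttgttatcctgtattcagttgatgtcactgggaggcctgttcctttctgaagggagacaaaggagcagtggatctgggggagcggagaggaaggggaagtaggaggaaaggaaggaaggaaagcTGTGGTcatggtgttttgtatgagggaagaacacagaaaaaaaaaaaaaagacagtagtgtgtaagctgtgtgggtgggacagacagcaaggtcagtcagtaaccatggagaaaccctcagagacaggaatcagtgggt
Klrb1b: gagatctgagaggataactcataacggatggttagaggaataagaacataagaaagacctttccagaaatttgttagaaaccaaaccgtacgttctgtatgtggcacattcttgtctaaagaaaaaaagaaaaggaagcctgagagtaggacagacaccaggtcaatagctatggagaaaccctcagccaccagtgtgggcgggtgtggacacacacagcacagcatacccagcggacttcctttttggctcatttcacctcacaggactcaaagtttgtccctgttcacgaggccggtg
Klrk1: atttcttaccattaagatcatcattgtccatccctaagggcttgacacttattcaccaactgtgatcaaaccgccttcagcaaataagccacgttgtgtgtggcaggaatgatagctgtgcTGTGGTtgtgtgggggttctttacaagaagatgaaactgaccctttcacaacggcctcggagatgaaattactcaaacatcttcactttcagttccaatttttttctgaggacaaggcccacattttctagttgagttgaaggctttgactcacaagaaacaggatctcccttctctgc
RUNX letters began at bases -176 and -41 of the Ncr1 window, -89 of Klrb1c and -129 of Klrk1, counted with the start as base 1 and no base 0. Klrc1 and Klrc2 held them too and Klrb1b and Klra5 did not, which made 5 of 7 windows, while 16.9% of 27025 promoter windows of the same length held the letters. The ETS letters GGAAGT, with reverse complement ACTTCC, were in those of Klrb1c and Klrb1b, against 24.1% of all windows, and the T-box letters AGGTGT, with reverse complement ACACCT, were in none of the 7, against 13.9%. No letters of one motif overlapped those of another in the 4 windows shown, and a match describes the sequence and is not a measured binding site.

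Replicate 1 was tagged in 2077 of 8064 cells of its capture and replicate 2 in 4532 of 15793. The tagged cells carried 11939862 and 12141164 unique molecular identifiers (UMIs, each 1 counted transcript molecule), and filters kept 1906 and 4179 of them at median depths of 4200 and 2364 UMIs. Only 7 cell indices were shared by tagged cells of both captures. Cells were assigned to gates, fixed lists of marker transcripts that hold no member other than Ncr1, and levels are UMIs of a gene scaled to 1000000 UMIs of the gate (CPM) with exact 95% Poisson intervals that cover counting error only. The gates held 70 and 54 myeloid cells, 47 and 160 ILC1 or NK cells, 52 and 112 ILC3s with Ncr1 and no Ccr6, 29 and 119 ILC3s with Ccr6 and no Ncr1, 264 and 821 ILC3s with neither, 28 and 373 CD8 or gamma-delta T cells and 183 and 968 CD4 T cells in replicates 1 and 2. Their median depths lay between 2056.5 and 4282 UMIs. The sort had left many other cells in: stromal cells made up 23.6% and 5.36% and plasma or B cells 7.19% and 0.646% of the cells kept, and these 2 gates serve as the background for receptors. Scrublet removed 2.01% and 0.143% of cells, so doublets must be taken as present, although 429 and 220 cells with markers of several lineages were left out.

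The ILC gates were checked against their defining markers. ILC3s carried Il23r, the receptor gene for interleukin 23, at 137 and 159 CPM and the stem cell factor receptor gene Kit at 491 and 478 CPM, both used in the gate, and had no UMI of Cd5 or Cd6, T cell genes whose absence the gate did not require. The ILC1 or NK gate rests on cytotoxic and type 1 transcripts with fewer than 2 ILC3 markers. It held Tbx21 (T-bet) at 93.5 and 190 CPM but not a single UMI of Eomes, which defines conventional NK cells, and it still held Kit at 156 and 204 CPM. It also held transcripts of the T cell receptor constant gene Trbc1 at 351 and 377 CPM, although Cd3d, Cd3e, Cd3g and Trac were absent by the gate. The name NK is therefore not borne out by Eomes, and the gate is called here by its rule. Summed over 6 T cell receptor constant genes, the level was 76.2 and 160 CPM in myeloid cells, 1013 and 996 CPM in ILC1 or NK-gated cells, 821 and 651 CPM in Ncr1-gated ILC3s, 572 and 712 CPM in Ccr6-gated ILC3s, 4095 and 5496 CPM in CD8 or gamma-delta T cells and 2116 and 2632 CPM in CD4 T cells.

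**Figure D1:**
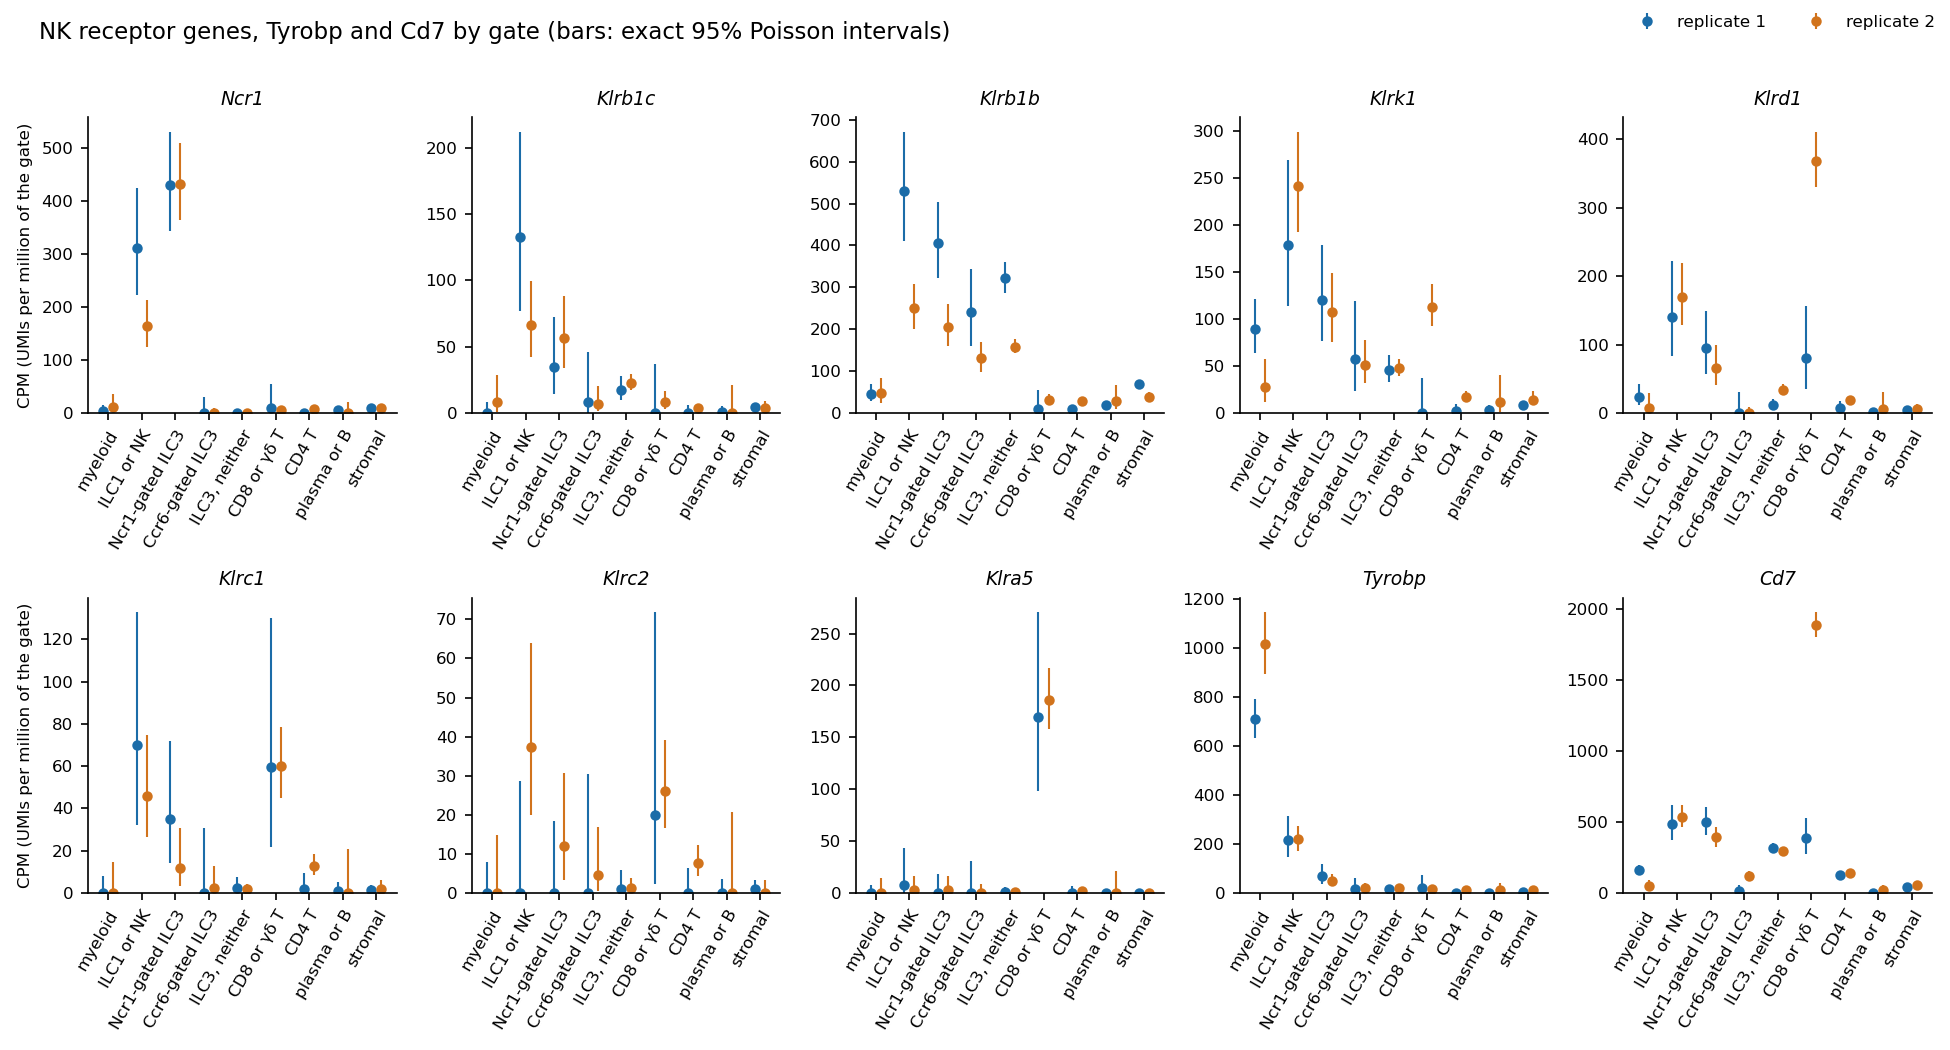
Level of each of the 10 members in 9 gates (CPM, 1 panel a gene, each with its own linear axis from 0). Points are replicates 1 and 2 and bars are exact 95% Poisson intervals; Tyrobp stands highest in myeloid cells, Klra5 in CD8 or gamma-delta T cells, and Klrb1b in the ILC gates.

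Among the activating receptors, Ncr1, the NKp46 receptor that signals through Fcer1g and Cd247, averaged 238 ± 104 CPM in ILC1 or NK-gated cells and 432 ± 1.89 CPM in Ncr1-gated ILC3s, where the gate itself sets it (SD, n = 2 here and below). In myeloid cells, both T cell gates and the background gates its mean stayed at or below 9.80 CPM, and each of those 5 gates overlapped its neighbour in the order of levels. Klrb1c, the NK1.1 antigen of C57BL/6 mice and an activating receptor, averaged 99.4 ± 46.9 CPM in ILC1 or NK-gated cells, 45.9 ± 15.4 CPM in Ncr1-gated ILC3s, 7.63 ± 0.920 CPM in Ccr6-gated ILC3s and 19.9 ± 3.96 CPM in ILC3s with neither gene. ILC1 or NK-gated cells lay above Ncr1-gated ILC3s and these above ILC3s with neither, in both replicates and without overlap, and all gates not named averaged at most 3.99 CPM. Klrk1, the NKG2D receptor for stress-induced ligands, averaged 58.6 ± 43.4 CPM in myeloid cells, 211 ± 44.3 CPM in ILC1 or NK-gated cells, 114 ± 8.90 CPM in Ncr1-gated ILC3s, 54.6 ± 4.79 CPM in Ccr6-gated ILC3s and 46.6 ± 1.15 CPM in ILC3s with neither. Its level in ILC1 or NK-gated cells stood apart from every other gate. Ncr1-gated ILC3s lay above the other ILC3s and myeloid cells without overlap but overlapped CD8 or gamma-delta T cells, which had 0 and 113 CPM.

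The receptors with inhibitory members had other orders. Klrb1b encodes NKR-P1B, an inhibitory receptor for the Clec2d product. It averaged 390.3 ± 198 CPM in ILC1 or NK-gated cells, 306 ± 141 CPM in Ncr1-gated, 185 ± 77.7 CPM in Ccr6-gated and 240.2 ± 115 CPM in the other ILC3s. Neighbours in the order of these 4 gates overlapped, but ILC1 or NK-gated cells, at 251 CPM or more, did not overlap Ccr6-gated ILC3s, at 240.2 CPM or less. In every ILC gate Klrb1b was higher in replicate 1 than in replicate 2: 327 CPM (296 to 361) and 162 CPM (148 to 177) over all ILC3s. Stromal cells also held it, at 68.5 CPM (96 of 449 cells, 21.4%) and 38.0 CPM (29 of 224 cells, 12.9%), and after thinning every cell to 1000 UMIs the shares were 7.13% and 5.09% in stromal cells, against 25.8% and 14.2% in ILC3s. In stromal cells without a single UMI of any ILC3, type 1 or T cell gate gene, an alternative chosen after seeing the data, Klrb1b was in 2 of 93 and 0 of 37 cells, and 0 of 37 cells allows up to 18.8 CPM. Klrd1 encodes CD94, the partner chain of the NKG2 receptors. It averaged 155 ± 20.9 CPM in ILC1 or NK-gated cells, 80.4 ± 20.8 CPM in Ncr1-gated ILC3s, 224 ± 205 CPM in CD8 or gamma-delta T cells and 12.9 ± 8.39 CPM in CD4 T cells, and had no UMI in either replicate of Ccr6-gated ILC3s.

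Klrc1 (NKG2A, the inhibitory partner of CD94) averaged 58.1 ± 17.0 CPM in ILC1 or NK-gated cells, 23.5 ± 16.3 CPM in Ncr1-gated ILC3s, 59.9 ± 0.155 CPM in CD8 or gamma-delta T cells and 7.35 ± 7.95 CPM in CD4 T cells. Klrc2 (NKG2C, the activating partner, which signals through DAP12) averaged 18.7 ± 26.5 CPM in ILC1 or NK-gated cells, where all 13 UMIs were in replicate 2, and 22.98 ± 4.32 CPM in CD8 or gamma-delta T cells. Both were at 0 in myeloid cells, which allows at most 6.53 and 12.0 CPM at 3 UMIs in replicates 1 and 2. Klra5 (Ly49E, an inhibitory member of the Ly49 family) averaged 178 ± 11.5 CPM in CD8 or gamma-delta T cells and at most 5.34 CPM in any other gate. Cd7, a surface glycoprotein of T cells, NK cells and ILCs, averaged 511 ± 39.0 CPM in ILC1 or NK-gated cells, 446 ± 77.2 CPM in Ncr1-gated, 66.5 ± 70.6 CPM in Ccr6-gated and 307 ± 12.8 CPM in the other ILC3s, 1139 ± 1061 CPM in CD8 or gamma-delta T cells and 134 ± 13.4 CPM in CD4 T cells. ILC1 or NK-gated cells, Ncr1-gated ILC3s and CD8 or gamma-delta T cells overlapped, and ILC3s with neither gene lay above Ccr6-gated ILC3s in both replicates. Tyrobp averaged 863 ± 217 CPM in myeloid cells, 219 ± 0.420 CPM in ILC1 or NK-gated cells and 58.9 ± 15.7 CPM in Ncr1-gated ILC3s, a descending order without overlap, and at most 18.8 CPM in every other gate.

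ILC3s with type 1 transcripts carried more of the NK receptor genes than ILC3s without. Cells with at least 2 of the 9 type 1 gate genes (Tbx21, Eomes, Nkg7, Gzma, Gzmb, Prf1, Ifng, Ccl5, Il12rb2), 113 and 266 in number, were compared with cells that had none, 146 and 533 in number. No member takes part in this split. All 7 members that passed the filter on low counts were higher in the type 1 cells, where 3.72% of the 7335 genes tested were called higher, 4.1% lower and 7.83% in either direction (edgeR's quasi-likelihood test with replicate as a block, Benjamini-Hochberg adjusted p under 0.05). The filter keeps a gene with enough UMIs in 1 class alone, as Klrd1 had with 106 in type 1 cells and 4 in cells without. The count of 7 is therefore a description and no support of its own. Klrc1, Klrc2 and Klra5 were too low to be tested, with 13, 5 and 4 UMIs in type 1 cells, against 3, 1 and 0 in cells without. Their UMI ratios were 7.04 (1.94 to 38.5) for Klrc1 and 8.12 (0.909 to 384) for Klrc2. Klra5 was 2.17-fold higher with 3 UMIs set in place of its 0, and the counting interval of its ratio began at 1.07.

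Klrd1 separated the classes most sharply among the members. It stood at 60.6 and 96.7 CPM in type 1 ILC3s in replicates 1 and 2, against 0 and 2.63 CPM (4 UMIs in 533 cells) in ILC3s without type 1 transcripts. Its log2 fold change was 5.38 (SE 0.47, adjusted p = 6.67e-21) and its UMI ratio 43.1 (16.3 to 161). Ncr1 was at 152 and 106 CPM in type 1 cells, against 9.61 and 20.4 CPM in cells without. The difference on the log2 scale was 2.78 (SE 0.27, adjusted p = 2.13e-17), and ILC3s with exactly 1 type 1 gene lay between at 51.7 and 43.7 CPM. Cd7 was at 618 and 518 CPM, against 113 and 158 CPM (log2 fold change 1.96, SE 0.13, adjusted p = 7.09e-31). These 3 genes were higher in type 1 cells in both replicates with intervals that did not overlap.

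The other 4 differences were smaller. Klrb1c had 37.3 and 37.5 CPM in type 1 ILC3s, against 7.69 and 13.2 CPM without type 1 transcripts (log2 fold change 1.72, SE 0.41, adjusted p = 0.001). Klrk1 had 83.9 and 81.0 CPM, against 42.3 and 38.1 CPM (1.04, SE 0.25, adjusted p = 0.00128). Tyrobp had 44.3 and 36.2 CPM, against 9.61 and 17.1 CPM (1.39, SE 0.38, adjusted p = 0.0057). The adaptor gene was thus higher in the same class of cells as the receptor genes, and it was detected in only 7.08% and 6.77% of type 1 ILC3s. Klrb1b had 368 and 222 CPM, against 331 and 129 CPM (0.46, SE 0.14, adjusted p = 0.0204), and its difference was 0.10 in replicate 1 and 0.78 in replicate 2. Median depths were 3501 and 2897 UMIs in type 1 cells and 3462 and 2786 UMIs in cells without, the T cell receptor constant genes summed to 678 and 626 CPM, against 644 and 607 CPM, and the 17 myeloid gate genes to 436 and 563 CPM, against 475 and 737 CPM. Beyond the alternative fits named next, their part in the result was not tested. Klrd1 was called in every alternative fit that tested it, Ncr1 and Cd7 in all but the thinned cells, and Klrb1b, Klrk1, Klrb1c and Tyrobp lost their calls without the replicate block and in DESeq2. Removing cells with Trbc1, Trbc2 or Trdc left 4 of the members called, and Klrk1 and Klrb1c were tested there and not called. Stricter gates also ended the call of Klrk1, and testing without a low-count filter or in thinned cells that of Klrb1b.

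**Figure D2:**
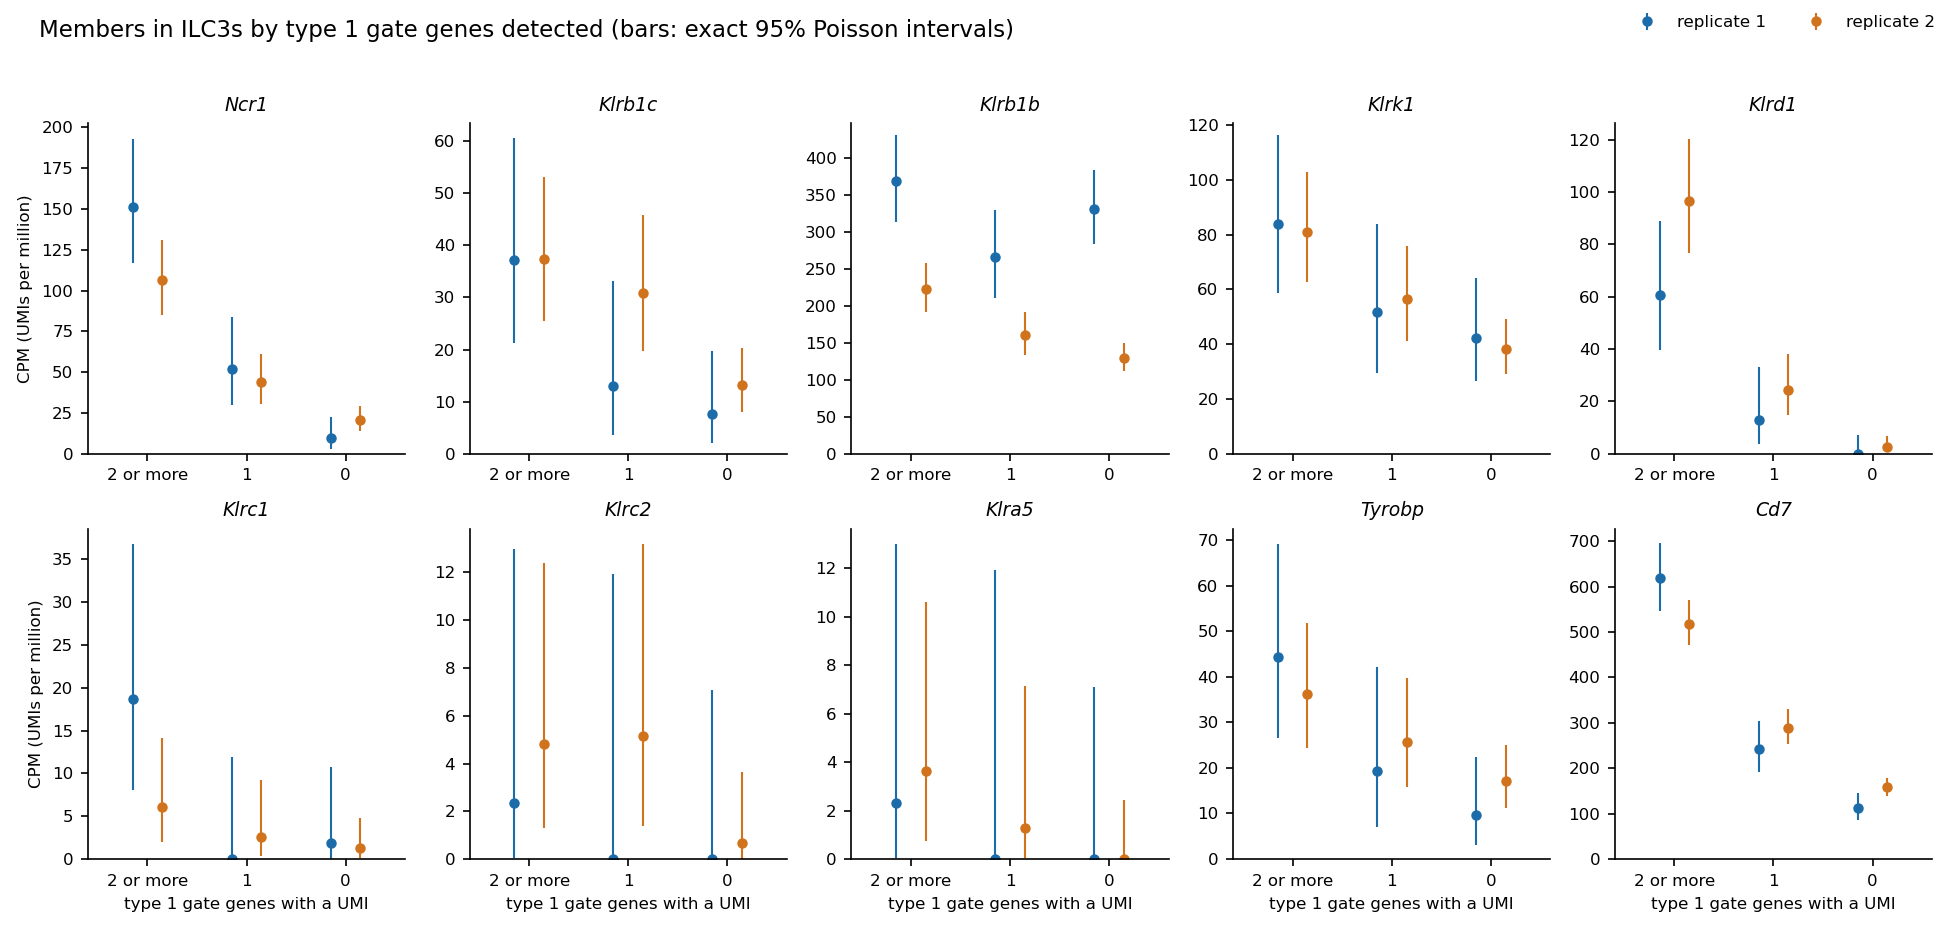
Members in ILC3s with 2 or more, exactly 1 and none of the type 1 gate genes (CPM; points are replicates 1 and 2, bars exact 95% Poisson intervals). Ncr1, Klrd1 and Cd7 lie highest in the cells with 2 or more type 1 genes and lowest in those with none.

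Other genes of the same systems were read from lists. Of 28 further NK receptor genes, 8 could be tested in this split and 5 were higher in type 1 ILC3s, with a median log2 fold change of 0.62 over the 8 against -0.00197 over all genes; DESeq2 called 2. Slamf7, a receptor of the SLAM family, had 74.6 and 61.6 CPM in type 1 cells, against 13.5 and 9.86 CPM without type 1 transcripts (log2 fold change 2.55, SE 0.35, adjusted p = 7.87e-10). Cd226 (DNAM-1), Cd244a (2B4), Cd160 and Il2rb were higher by 1.16, 0.98, 0.67 and 0.45 on the log2 scale. Of 22 adaptor and signalling genes, 17 were tested, Lck and Fyn, both Src-family kinases, were higher (1.67 and 0.81), and Lat, a scaffold of T cell receptor signalling, was lower (-0.88). Of 14 ligand genes, 7 were tested and H2-T23, which encodes Qa-1, the ligand of the CD94 and NKG2A pair, was lower at 273 and 297 CPM in type 1 cells, against 453 and 419 CPM without (log2 fold change -0.61, SE 0.12, adjusted p = 5.43e-05). H2-K1 and H2-D1, classical class I genes, were lower by -0.32 and -0.31 and Cd48, the ligand of 2B4, was higher (1.07), while DESeq2 called none of the 7 ligand genes.

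Splitting ILC3s by Ncr1 and Ccr6 gave fewer calls, in another fit and with fewer cells (164 and 148, against 379 and 679 in the type 1 split). The numbers of calls are therefore not a measure of which split the genes follow. Log2 fold changes were 2.72, 1.12, 1.57, 0.72 and 2.42 for Klrb1c, Klrk1, Tyrobp, Klrb1b and Cd7, against 1.72, 1.04, 1.39, 0.46 and 1.96 in the type 1 split. Of the 9 members tested in Ncr1-gated over Ccr6-gated ILC3s, with Ncr1 left out as a gate gene, Klrd1 and Cd7 were called higher and none lower, where 1.06% of 7009 genes were called higher and 1.17% lower (2.23% in either direction). Klrd1 had 95.1 CPM (19 UMIs in 13 of 52 cells) and 65.7 CPM (22 UMIs in 17 of 112 cells) in Ncr1-gated ILC3s and no UMI in 29 and 119 Ccr6-gated ILC3s (adjusted p = 0.0018). With 3 UMIs set in place of 0 over the whole Ccr6 group, Klrd1 was 14.1-fold higher, and the counting interval of its ratio began at 10.9. Cd7 had 500.3 and 391 CPM in Ncr1-gated ILC3s, against 16.6 and 116 CPM in Ccr6-gated ILC3s (log2 fold change 2.42, SE 0.54, adjusted p = 0.011). The 2 subsets did not overlap for either gene. Cd7 was no longer called without the replicate block, with stricter gates, or once cells with Trbc1, Trbc2 or Trdc were removed, and neither gene was called in the shallower thinned cells.

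The remaining members did not pass the test between the 2 subsets. Klrb1c had 35.0 and 56.7 CPM in Ncr1-gated ILC3s, against 8.28 and 6.98 CPM in Ccr6-gated ILC3s, with adjusted p = 0.121. Tyrobp had 70.0 and 47.8 CPM, against 16.6 and 20.9 CPM, with adjusted p = 0.161. Klrk1 had 120.1 and 108 CPM, against 58.0 and 51.2 CPM, with adjusted p = 0.488, and Klrb1b had 405 and 206 CPM, against 240.2 and 130.3 CPM, with adjusted p = 0.478. For each of these 4 genes the Ncr1-gated cells had the higher value in both replicates, although Tyrobp was at -0.10 on the log2 scale in thinned cells. Klrc1 had 11 UMIs in Ncr1-gated ILC3s and 1 in Ccr6-gated ILC3s, a ratio of 11.3 with a counting interval of 1.65 to 487, while Klrc2 had 4 and 2 UMIs, a ratio of 2.06 (0.295 to 22.8), and Klra5 1 and 0.

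Among the listed genes, Slamf7 and Cd244a were the 2 of 12 tested NK receptors called higher in Ncr1-gated ILC3s, with a median log2 fold change over the 12 of 1.31 (1.08 with genes at 0 set to their bound) against 0.0124 over all genes. DESeq2 called 1 of the 12, and Cd244a lay near the threshold in edgeR (1.595, SE 0.43, adjusted p = 0.0478). Slamf7 had 105 and 62.7 CPM in Ncr1-gated ILC3s, against 8.28 and 11.6 CPM in Ccr6-gated ILC3s (2.79, SE 0.62, adjusted p = 0.011). Lck was the only one of 21 adaptor and signalling genes called, at 125 and 161 CPM in Ncr1-gated ILC3s, against 41.4 and 18.6 CPM in Ccr6-gated ILC3s (2.60, SE 0.38, adjusted p = 0.000155). Beside it, Trbc1 stood at 160 and 116 CPM in Ncr1-gated ILC3s, against 41.4 and 16.3 CPM in Ccr6-gated ILC3s. Its part in the Lck result was not tested. None of the 8 ligand genes tested was called by edgeR or by DESeq2, with 1 higher and 3 lower at an unadjusted p under 0.05.

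**Figure D3:**
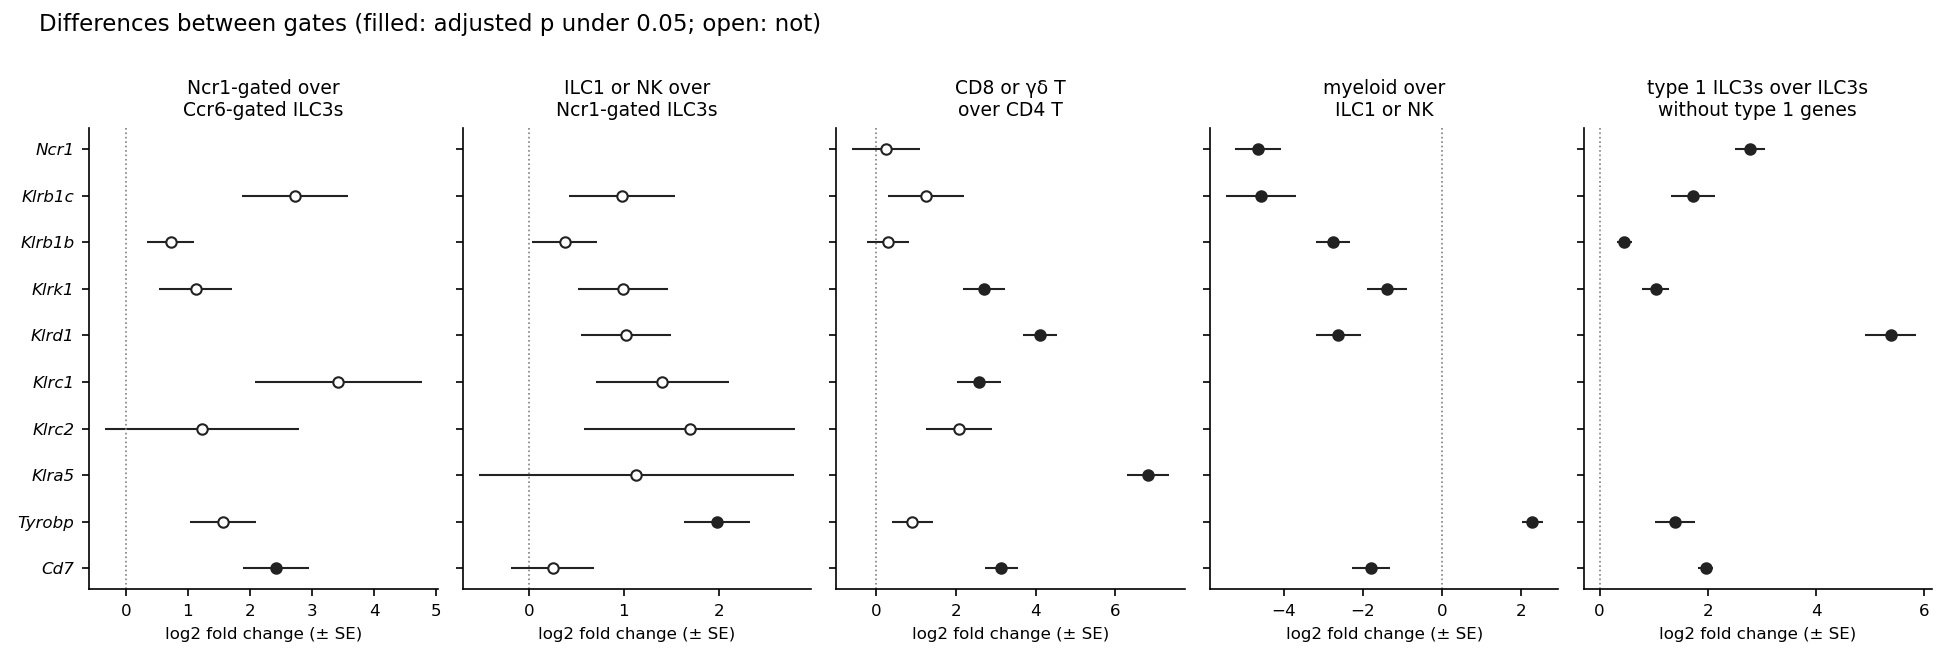
Log2 fold changes of the members in 5 comparisons, first-named gate over second (points; bars are ± 1 SE from edgeR). Filled points passed an adjusted p of 0.05; gate genes, untested members and members with no UMI in 1 of the 2 gates are not drawn, and Tyrobp is above 0 in all 5 comparisons, passing in 3 of them.

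Between the 2 carriers of Ncr1, the adaptor gene differed and the receptors did not pass the test. Tyrobp stood at 218.3 CPM (145 to 315; 28 UMIs in 14 of 47 cells) and 218.9 CPM (172 to 274; 76 UMIs in 36 of 160 cells) in ILC1 or NK-gated cells, against 70.0 CPM (38.3 to 118) and 47.8 CPM (27.3 to 77.6) in Ncr1-gated ILC3s. The log2 fold change was 1.99 (SE 0.35, adjusted p = 0.00486), and the UMI ratio 3.90 (2.58 to 6.07). It was the only 1 of 9 members called, where 0.157% of 7009 genes were called higher and 0.185% lower (0.342% in either direction). Klrd1 had 140.3 and 169.9 CPM in ILC1 or NK-gated cells, against 95.1 and 65.7 CPM in Ncr1-gated ILC3s (adjusted p = 0.589), and Klrk1 179 and 242 CPM, against 120.1 and 108 CPM (adjusted p = 0.626). Klrb1c had 133 and 66.2 CPM, against 35.0 and 56.7 CPM (adjusted p = 0.689), and Klrb1b 530.1 and 251 CPM, against 405 and 206 CPM (adjusted p = 0.839). Each of these was higher in the ILC1 or NK-gated cells in both replicates, with counting intervals of the UMI ratio of 1.43 to 3.17 for Klrd1, 1.45 to 2.80 for Klrk1, 1.03 to 2.95 for Klrb1c and 0.923 to 1.47 for Klrb1b. The Tyrobp call was lost without the replicate block, in thinned cells, and once cells with Trbc1, Trbc2 or Trdc were removed, where the log2 fold change was 2.03. With stricter gates it was 3.52 and still called.

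None of the 12 NK receptor, 21 adaptor and 8 ligand genes on the lists was called between these 2 gates by edgeR or by DESeq2, with 2, 5 and 0 higher at an unadjusted p under 0.05 and none lower. Their median log2 fold changes were 0.21, 0.65 (0.32 with genes at 0 set to their bound) and 0.0643 against -0.0116 over all genes. Hcst had 226 and 251 CPM in ILC1 or NK-gated cells, against 130.1 and 134 CPM in Ncr1-gated ILC3s (0.91, SE 0.28, adjusted p = 0.240).

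CD8 or gamma-delta T cells carried more of the inhibitory receptor gene Klra5, the CD94 gene Klrd1 and Cd7 than CD4 T cells. Of 10 members tested over CD4 T cells, 5 were higher and none lower, where 0.885% of 7009 genes were called higher and 0.77% lower (1.66% in either direction). The low-count filter keeps a gene with enough UMIs in 1 gate alone, as Klra5 had with 181 in CD8 or gamma-delta T cells and 4 in CD4 T cells. The count of 5 is therefore a description and no support of its own. Klra5 had 169 CPM (17 UMIs in 2 of 28 cells) and 186 CPM (164 UMIs in 41 of 373 cells) in CD8 or gamma-delta T cells, against 0 and 1.79 CPM (4 UMIs in 968 cells) in CD4 T cells. Its log2 fold change was 6.83 (SE 0.52, adjusted p = 1.21e-08). Few cells held it and some held much, up to 15 UMIs in 1 cell. Klrd1 had 79.7 and 369 CPM in CD8 or gamma-delta T cells, against 6.92 and 18.8 CPM in CD4 T cells (4.12, SE 0.43, adjusted p = 7.84e-07). Cd7 had 389 and 1889 CPM, against 125 and 144 CPM (3.14, SE 0.42, adjusted p = 3.77e-05). These 3 calls were kept under every alternative fit that tested them, and the replicates of the 2 gates did not overlap.

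Klrk1 and Klrc1 were called with less support. Klrk1 had 0 CPM in the 28 CD8 or gamma-delta T cells of replicate 1 and 113 CPM (100 UMIs in 56 of 373 cells) in those of replicate 2, against 1.73 and 17.4 CPM in CD4 T cells (2.71, SE 0.53, adjusted p = 0.00455). The call rests on replicate 2, since the difference was -0.64 in replicate 1 alone and 2.48 in replicate 2 alone. In replicate 1 only 1 of 183 CD4 T cells held Klrk1, so the -0.64 is no measured reversal. Klrc1 had 59.8 CPM (6 UMIs in 2 cells) and 59.995 CPM (53 UMIs in 33 cells), against 1.73 and 12.97 CPM (2.58, SE 0.55, adjusted p = 0.0114). DESeq2 and the fit without the replicate block called neither gene. Klrc2, at 19.9 and 26.0 CPM against 0 and 7.60 CPM (adjusted p = 0.372), and Tyrobp, at 19.9 and 17.0 CPM against 1.73 and 11.2 CPM (adjusted p = 0.703), did not pass. Ncr1, Klrb1c and Klrb1b had adjusted p = 1, 0.884 and 0.979, and the UMI ratio of Klrb1b was 1.13 (0.701 to 1.77).

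The gate was split further after seeing the data, into cells with Trdc, the gamma-delta receptor constant gene (20 and 267 cells), cells with Cd8b1 and no Trdc (5 and 72 cells) and cells with Cd8a alone (3 and 34 cells). In replicate 2 the 41 Klra5-positive cells comprised 36 with Trdc, 5 with Cd8a alone and none with Cd8b1. Klra5 stood there at 225 CPM (190 to 266) in cells with Trdc, at 306 CPM (192 to 463) in cells with Cd8a alone and at 0 in the 72 cells with Cd8b1, which allows up to 16.5 CPM. Klrd1 was at 443 CPM (392 to 498) with Trdc, 320 CPM (203 to 480) with Cd8a alone and 132 CPM (84.7 to 197) with Cd8b1. Klrk1 was at 138, 41.7 and 55.1 CPM in the same 3 classes, and Klrc1 at 77.8, 0 (at most 41.7) and 22.0 CPM. Cd7 differed less, with 1975, 1599 and 1708 CPM. In replicate 1 Cd7 was at 118 CPM (9 UMIs) in the 20 cells with Trdc, and Klra5 was in 1 of them, so replicate 1 gave too few cells to order the classes. Trdc itself stood at 667 and 1435 CPM in the CD8 or gamma-delta T gate of replicates 1 and 2.

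Of the listed genes, 3 of 12 NK receptors tested were higher in CD8 or gamma-delta T cells and 1 was lower, with a median of 0.0261 against -0.0178 over all genes. DESeq2 called 2 higher and 0 lower. Klre1, a lectin of the NK gene complex, had 19.9 and 77.0 CPM in CD8 or gamma-delta T cells, against 0 and 2.68 CPM in CD4 T cells (4.79, SE 0.68, adjusted p = 7.96e-05). Cd244a had 89.7 and 78.1 CPM, against 1.73 and 5.81 CPM (3.97, SE 0.41, adjusted p = 6.36e-07), Cd160 was higher by 1.45 and Cd2 was lower (-1.30). Of 21 adaptor and signalling genes, 3 were higher, Lat2 (4.98), Fcer1g (2.39) and Plcg2 (1.81), with a median of -0.0279. None of the 8 ligand genes was called by edgeR or DESeq2, and none had an unadjusted p under 0.05.

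Myeloid cells carried the adaptor gene without most of the receptors. Over ILC1 or NK-gated cells, Tyrobp was the 1 member called higher and 8 of 10 were lower, where 14.5% of 7009 genes were called higher and 11.5% lower (26% in either direction). Tyrobp stood at 709 CPM (326 UMIs in 52 of 70 cells) and 1017 CPM (255 UMIs in 42 of 54 cells) in myeloid cells, against 218.3 and 218.9 CPM in ILC1 or NK-gated cells (2.29, SE 0.26, adjusted p = 1.96e-07). Split after seeing the data, myeloid cells with more macrophage genes (17 and 35 cells) had 1231 and 1317 CPM of Tyrobp and those with more dendritic cell genes (44 and 15 cells) 521 and 630 CPM, with intervals that did not overlap between these classes.

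The receptors ran the other way. Ncr1 had 4.35 and 12.0 CPM in myeloid cells, against 312 and 164 CPM in ILC1 or NK-gated cells (-4.67, SE 0.58, adjusted p = 1.72e-06). Klrb1c had 0 and 7.98 CPM, against 133 and 66.2 CPM (-4.58, SE 0.89, adjusted p = 0.000348), a UMI ratio of 0.0335 (0.00392 to 0.129). Klrb1b had 45.7 and 47.9 CPM, against 530.1 and 251 CPM (-2.76, SE 0.44, adjusted p = 2.79e-05), and its level in myeloid cells lay within the range of the stromal cells. Klrd1 had 23.9 and 7.98 CPM, against 140.3 and 169.9 CPM (-2.62, SE 0.58, adjusted p = 0.00133). Cd7 had 159 and 51.8 CPM, against 483 and 538 CPM (-1.80, SE 0.49, adjusted p = 0.00676). Klrc1 had no UMI in myeloid cells and 25 in ILC1 or NK-gated cells (adjusted p = 0.000721), and Klrc2 had 0 and 13 UMIs (adjusted p = 0.045). With 3 UMIs set in place of 0 they were 12.5-fold and 6.47-fold lower, and the counting intervals of their ratios reached up to 0.106 and 0.22. Klra5, with 0 and 2 UMIs, did not pass (adjusted p = 0.237).

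Klrk1 had the smallest log2 fold change of the 8 members that were lower in myeloid cells. It had 89.2 CPM (41 UMIs in 16 of 70 cells) and 27.9 CPM (7 UMIs in 7 of 54 cells) there, against 179 and 242 CPM in ILC1 or NK-gated cells (-1.39, SE 0.50, adjusted p = 0.0411), and the difference was -0.71 in replicate 1 alone and -2.73 in replicate 2 alone. In replicate 1, 38 of the 41 UMIs lay in 14 of the 44 cells with more dendritic cell genes, at 116 CPM (82.0 to 159), and in replicate 2 that class had 3 UMIs in 15 cells. The 6 T cell gate genes summed to 8.70 and 47.9 CPM, the 9 type 1 gate genes to 239 and 1077 CPM and the 5 ILC3 gate genes to 466 and 790 CPM in the myeloid gate. Their part in the Klrk1 level was not tested. The Klrk1 call was lost in DESeq2, without the replicate block, with stricter gates and without cells holding Trbc1, Trbc2 or Trdc, that of Klrc2 in the first pair of these, and that of Klrd1 in thinned cells.

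Of 12 NK receptor genes tested, Slamf7 was higher in myeloid cells (1.97) and 10 were lower, with a median of -3.08 (-2.90 with genes at 0 set to their bound) against 0.0390 over all genes. Of 21 adaptor and signalling genes 4 were higher and 4 lower, with a median of -0.096 (-0.0115 with genes at 0 set to their bound), beside the 14.5% and 11.5% of all genes called. Syk, the kinase that DAP12 engages in myeloid cells, had 120 and 215 CPM in myeloid cells, against 39.0 and 14.4 CPM in ILC1 or NK-gated cells (3.23, SE 0.55, adjusted p = 7.74e-05). Lat2, Grb2 and Ptpn6 were higher too (1.88, 1.52 and 1.29). Lck (-4.79), Zap70 (-3.66), Hcst (-3.16) and Cd247, which had no UMI in myeloid cells, were lower. Of 8 ligand genes 3 were higher, Pvr (4.13), Clec2d, the gene of the Klrb1b ligand (1.53), and H2-T23 (0.86).

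Because the receptors depend on adaptors, the 4 adaptor genes were set side by side. Fcer1g was broad: it stood at 564 and 1495 CPM in myeloid cells, 1208 and 1273 CPM in ILC1 or NK-gated cells, 996 and 1248 CPM in Ncr1-gated ILC3s, 754 and 936 CPM in Ccr6-gated ILC3s, 219 and 247 CPM in CD8 or gamma-delta T cells and 1.73 and 68.4 CPM in CD4 T cells. It did not pass between Ncr1-gated and Ccr6-gated ILC3s (0.41, SE 0.35, adjusted p = 0.737), nor between myeloid and ILC1 or NK-gated cells (-0.10, SE 0.34, adjusted p = 0.879). Hcst had 17.4 and 27.9 CPM in myeloid cells, 226 and 251 CPM in ILC1 or NK-gated cells, 130.1 and 134 CPM in Ncr1-gated and 108 and 76.8 CPM in Ccr6-gated ILC3s, 339 and 401 CPM in CD8 or gamma-delta T cells and 272 and 388 CPM in CD4 T cells. Cd247 had no UMI in myeloid cells, 23.4 and 11.5 CPM in ILC1 or NK-gated cells, 0 and 2.99 CPM in Ncr1-gated ILC3s, 79.7 and 102 CPM in CD8 or gamma-delta T cells and 190.3 and 186 CPM in CD4 T cells. Each adaptor gene therefore had its own order of gates: Tyrobp was highest in myeloid cells, Cd247 in CD4 T cells, and Hcst in the T cell gates. Stromal cells held Fcer1g at 137 and 253 CPM, Hcst at 9.89 and 30.9 CPM and Tyrobp at 5.86 and 10.6 CPM.

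**Figure D4:**
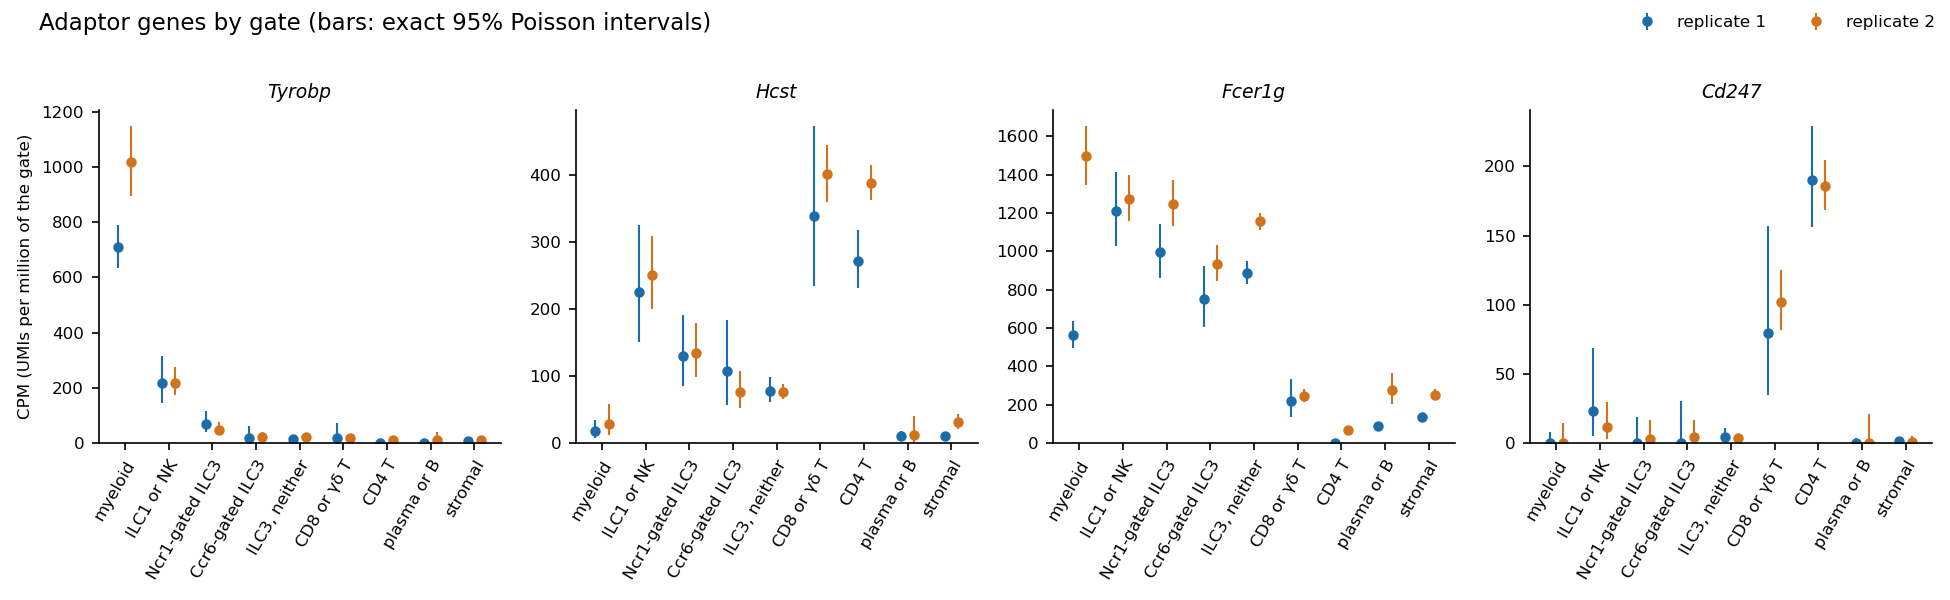
Levels of the adaptor genes Tyrobp, Hcst, Fcer1g and Cd247 by gate (CPM, linear axes from 0; points are replicates 1 and 2, bars exact 95% Poisson intervals). Tyrobp peaks in myeloid cells, Hcst and Cd247 in the T cell gates, and Fcer1g is at 754 CPM or more in the ILC gates.

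Co-detection within single cells was read as the number of cells with UMIs of both genes beside the product of their shares, with no test, and deeper cells show more of every gene. In ILC1 or NK-gated cells, Tyrobp and Ncr1 were found together in 8 cells where the product gives 5.96 in replicate 1, and in 16 cells where it gives 10.6 in replicate 2. After thinning to 1000 UMIs the replicate 2 count was 12 cells beside a product of 4.85. Tyrobp with Klrk1 gave 6 cells beside 3.57 and 18 beside 11.9, Tyrobp with Klrd1 7 beside 3.87 and 14 beside 8.55, and Tyrobp with Klrc1 5 beside 1.79 and 6 beside 2.03. Tyrobp was thus seen with each of these 4 receptors more often than the product in both replicates, and so it was with Klrb1c, Klrb1b and Cd7. Klrc2 and Klra5 were not seen with it in replicate 1. After thinning, the excess was not seen for Klrb1b in replicate 1 (2 beside 2.02) or for Cd7 in replicate 2 (5 beside 5.37). The 4 receptors and Klrb1c stayed above the product after thinning, with counts as low as 1 cell for Klrd1 and Klrb1c in replicate 1. Of the Klrk1-positive cells of this gate, 6 of 12 and 25 of 53 also held Hcst, beside products of 5.11 and 19.2. All 20 and 41 of 47 Ncr1-positive cells held Fcer1g, which 44 of 47 and 128 of 160 cells of the gate held in any case, and Ncr1 met Cd247 in 1 and 0 cells.

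Over all ILC3s, Ncr1 and Klrd1 were found together in 13 cells beside a product of 3.01 in replicate 1 and in 18 cells beside 8.57 in replicate 2. At equal depth the counts were 2 beside 0.319 and 3 beside 1.32. Klrd1 was in 25% and 15.5% of ILC3s with Ncr1 and in 2.39% and 6.38% of those without. Within type 1 ILC3s the pair was in 12 cells beside 5.42 in replicate 1 and in 13 beside 13.7 in replicate 2, where Klrd1 was in 20.3% of cells with Ncr1 and 21.8% of those without, so the excess was not seen there in replicate 2. Ncr1 with Cd7 gave 16 cells beside 11.5 and 39 beside 27.8, and after thinning 3 beside 3.25 and 5 beside 6.81, so that excess was not seen at equal depth. Tyrobp with Klrk1 gave 6 cells beside 2.32 and 12 beside 5.09, and after thinning 1 beside 0.232 and 1 beside 0.938. Of ILC3s with Ncr1, 51 of 52 and 106 of 116 held Fcer1g and 0 and 1 held Cd247. Most other ILC3s held Fcer1g in any case: 86.7% of those without Ncr1 in replicate 1 and 89.2% of those with neither Ncr1 nor Ccr6 in replicate 2.

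The CD94 partners were seen together in ILC1 or NK-gated cells, in CD8 or gamma-delta T cells and also in other gates. In Ncr1-gated ILC3s Klrd1 and Klrc1 were together in 2 and 1 cells of replicates 1 and 2, beside products of 0.75 and 0.607. Klrd1 and Klrc2 were together there in 0 and 2 cells, beside 0 and 0.304, and neither pair was seen after thinning. In CD4 T cells Klrd1 and Klrc1 were together in 0 and 3 cells, beside 0.0219 and 0.868. In ILC1 or NK-gated cells Klrd1 and Klrc1 were together in 3 cells of replicate 1, beside a product of 1.66, and in 6 cells of replicate 2, beside 2.14, and Klrd1 and Klrc2 in 0 and 6 cells, beside 0 and 1.66. After thinning these were 0 and 1 cells for Klrc1, beside 0.255 and 0.667, and 0 and 1 for Klrc2, beside 0 and 0.533. In CD8 or gamma-delta T cells Klrd1 and Klrc1 were together in 2 cells of replicate 1, beside a product of 0.214, and in 22 cells of replicate 2, beside 12.6, and after thinning in 2 beside 0.143 and 13 beside 6.26. Klrd1 with Klrc2 was found in 0 and 10 cells, beside 0.107 and 6.85. Klrk1 and Hcst were together in 35 cells of replicate 2, beside 31.7. In myeloid cells Klrk1 met Hcst in 1 of 16 and 2 of 7 Klrk1-positive cells and Tyrobp in 13 of 16 and 6 of 7. In thinned myeloid cells Klrk1 and Tyrobp met in 2 cells beside 2.07 in replicate 1 and in none in replicate 2. Klrd1 met neither Klrc1 nor Klrc2 there, since both were at 0.

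**Figure D5:**
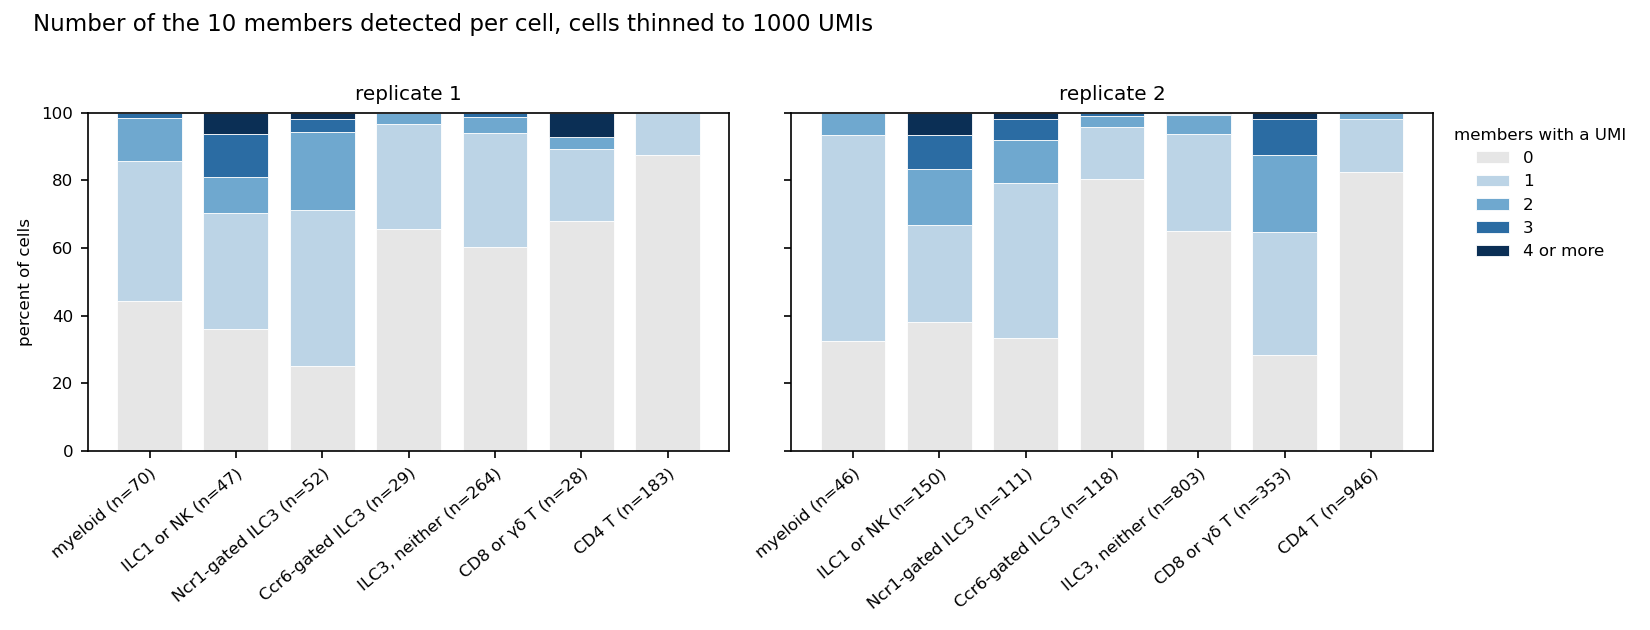
Share of cells with 0, 1, 2, 3 or 4 or more of the 10 members detected after thinning each cell to 1000 UMIs, by gate and replicate (percent of thinned cells, stacked bars). ILC1 or NK-gated cells had 2 or more members in 29.8% and 33.3% of cells, and CD4 T cells in 0% and 2.01%.

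Counting members per cell at equal depth, 14.3% and 6.52% of myeloid cells, 29.8% and 33.3% of ILC1 or NK-gated cells, 28.8% and 20.7% of Ncr1-gated ILC3s and 3.45% and 4.24% of Ccr6-gated ILC3s had 2 or more. The share was 10.7% and 35.1% in CD8 or gamma-delta T cells, which differed between the replicates, and 0% and 2.01% in CD4 T cells. Thinning kept every gated cell of replicate 1 and, in replicate 2, 46 of 54 myeloid, 150 of 160 ILC1 or NK-gated, 111 of 112 Ncr1-gated, 118 of 119 Ccr6-gated, 353 of 373 CD8 or gamma-delta T and 946 of 968 CD4 T cells. Ncr1 counts in every Ncr1-gated cell before thinning, so their share is raised by the gate. No member was found in 36.2% and 38.0% of thinned ILC1 or NK-gated cells. Before thinning, 1 cell held as many as 8 members among ILC1 or NK-gated cells and 9 among Ncr1-gated ILC3s.

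Likeness of pattern was described by Pearson's r of log2(CPM + 1) over the 14 sums of 7 gates in 2 replicates, which share libraries and depth, with no test. Klrb1b was most like Sorcs2 (r = 0.959), Nr4a3 and Cxxc5 (both 0.954), and its nearest member was Klrb1c (0.864). Klrd1 was nearest to Cd7 among the members (0.879) and to Chsy1 (0.883), Nop14 (0.838) and Xcl1 (0.833) among other genes, and Klrc1 was also most like Chsy1 (0.931). Klra5 was most like Trdc (0.849), which is a gate gene of the T cell gate it marks, Acin1 (0.821) and Tcrg-C4 (0.813). Tyrobp was most like Spag9 (0.893), Rrbp1 (0.873) and Ist1 (0.855), and its nearest member, Ncr1, reached 0.495. Cd7 was most like Nolc1 (0.895), Chn2 (0.885) and Fam76b (0.879), Klrk1 like Slc27a1 (0.882), Nipsnap2 (0.880) and Hpcal1 (0.867), and Ncr1 like Serpinb9 (0.777), Bcas2 (0.739) and Xcl1 (0.730). Klrb1c was most like Gm7932 (0.914), Gm36723 (0.896) and Ginm1 (0.886), and Klrc2 like Cdc37l1 (0.831), Tcof1 (0.800) and Kif13b (0.797).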

How the data were processed

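Single cells were captured on the BD Rhapsody system, and the deposited tables hold counts of unique molecules per cell and gene, made by the authors with the BD WTA Multiplex Rhapsody Analysis Pipeline on GRCm38 with PhiX and GENCODE annotation, per the file headers. Per the submitters' processing notes, HISAT2 2.0.5 and Bowtie2 were used too, in a role not given there. Sample tags, called by that pipeline per the file headers, gave the cells of tag 4 in the 8064-cell capture (replicate 1) and of tag 2 in the 15793-cell capture (replicate 2). Cells of the 3 other tags per capture, multiplets and undetermined cells were not used.

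Cells needed 300 or more detected genes and a mitochondrial share of no more than 25%, Scrublet doublets were removed, and cells were gated on marker transcripts: at least 2 of 6 T cell, 3 of 17 myeloid, 2 of 7 plasma or B, 3 of 6 stromal, and, among cells of no lineage without T cell receptor complex genes, 2 of 5 ILC3 (Il23r, Il22, Il1r1 and Kit among them) or else 2 of 9 type 1 transcripts. ILC3s were split by a UMI of Ncr1 or Ccr6, and cells with both were left out of that split. T cells with Cd8a, Cd8b1 or Trdc and no Cd4 made up the CD8 or gamma-delta gate. UMIs were summed per replicate and gate, 14 sums of 7 gates, and fitted with edgeR 4.0.16 (TMM, filterByExpr, quasi-likelihood, replicate as a block, since both gates of a pair come from the same sample) under R 4.3.3. The type 1 split was a separate fit of 6 sums. It left 2 residual degrees of freedom, against 6 in the fit of 7 gates. The estimate of spread was shared over genes, with 182 and 18.8 prior degrees of freedom in these 2 fits. The very small p-values of the type 1 split therefore rest mostly on the spread shared over genes. P-values were Benjamini-Hochberg adjusted over all genes tested, with 0.05 as the threshold. DESeq2 1.42.0, no block, no low-count filter, gates of 3 or more genes, removal of cells with Trbc1, Trbc2 or Trdc, thinning to 1000 UMIs before gating, and no doublet removal were alternatives. The subdivisions of the CD8 or gamma-delta T and myeloid gates and the stricter stromal class were added after seeing the data. On simulated counts, 41% of genes changed 2-fold and 88% of those changed 4-fold were recovered for Ncr1-gated over Ccr6-gated ILC3s (7009 genes). For the type 1 split (7335 genes) the shares were 92% and 100%. The changed genes were drawn only from those at 50 CPM or more over all sums of the fit. These shares therefore do not hold for members below that level. The members and lists were chosen with earlier results of these data known. The named genes are the 10 members, the genes of the 3 lists that passed the threshold, the adaptors the members pair with, and the 3 genes most like each member. Floors are 3 UMIs, and exact 95% intervals cover counting error only. A marker gene of the ILC3 gate is not reported here.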

Additional observations from a re-analysis of the deposited data

How the results depend on the processing

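Both gates of a comparison come from the same tagged sample, so the replicate block pairs them, and calls depended on it. Without the block, genes called higher and lower numbered 42 and 45 for Ncr1-gated over Ccr6-gated ILC3s (74 and 82 with it), 1 and 5 for ILC1 or NK-gated cells over Ncr1-gated ILC3s (11 and 13), 25 and 10 for CD8 or gamma-delta over CD4 T cells (62 and 54) and 63 and 68 for the type 1 split (273 and 301). Members called were then 1, 0, 3 and 3 in these 4 comparisons, against 2, 1, 5 and 7 with it. DESeq2 called 44 genes higher between the ILC3 subsets, 35 higher and 14 lower between the T cell gates and 68 higher and 67 lower in the type 1 split, with 3 members in each of the last pair.

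Without cells holding Trbc1, Trbc2 or Trdc, the counts were 39 and 54 between the ILC3 subsets with 1 member, 6 and 6 for ILC1 or NK-gated cells with 0 members, and 117 and 149 in the type 1 split with 4 members, and 476 genes were lower in myeloid cells (808 otherwise). With 3 or more gate genes they were 43 genes higher and 1 member between the ILC3 subsets, 36 and 29 for ILC1 or NK-gated cells, and 141 and 168 in the type 1 split. With no low-count filter, 35 and 32 genes were called for ILC1 or NK-gated cells, and 100 were lower between the T cell gates. Thinning gave 12 and 19 genes and 0 members between the ILC3 subsets, 18 genes higher and 0 members for ILC1 or NK-gated cells, 35 genes and 3 members higher between the T cell gates, 394 higher and 334 lower with 3 members lower in myeloid cells (1014, 808 and 8 otherwise), and 23 and 20 genes and 0 members in the type 1 split. Thinned sums hold fewer UMIs. For the other settings the cause was not tested.

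Called member results kept their call in 23 of 23 fits with no doublet removal, 23 of 24 with no filter, 19 of 22 with 3 gate genes, 17 of 22 without constant-gene cells, 16 of 24 in DESeq2, 14 of 24 without the block and 7 of 14 in thinned cells. Directions reversed in thinned cells for Tyrobp between the ILC3 subsets (-0.10), Ncr1 (-2.38) and Klrb1b (-0.74) between the T cell gates and Klrb1b in the type 1 split (-0.081). The sign also changed for Klrk1 between the T cell gates (-0.64 without replicate 2 and 2.48 without replicate 1). The -0.64 rests on 0 of 28 CD8 or gamma-delta T cells and 1 of 183 CD4 T cells with Klrk1, so it is no measured reversal. With 1 replicate left no residual spread remains, so only members' values were computed. Outside the T cells Klrc2 and Klra5 had few UMIs, such as 10 and 5 over all ILC3s, so their differences there are poorly measured.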

Other observations

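Klre1, a lectin that pairs with Klri1 or Klri2, was at 78.0 and 46.1 CPM in ILC1 or NK-gated cells, 15.01 and 11.9 CPM in Ncr1-gated ILC3s, 0 and 4.66 CPM in Ccr6-gated ILC3s, 19.9 and 77.0 CPM in CD8 or gamma-delta T cells and 0 and 2.68 CPM in CD4 T cells. Cd160, a receptor for class I molecules and HVEM, was at 19.6 and 59.8 CPM in myeloid cells, 390 and 369 CPM in ILC1 or NK-gated cells, 430.3 and 424 CPM in Ncr1-gated ILC3s, 141 and 242 CPM in Ccr6-gated ILC3s, 219 and 344 CPM in CD8 or gamma-delta T cells and 149 and 84.1 CPM in CD4 T cells.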
